A study of Homo sapiens with 6 samples.

Results

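The collagen alpha chain genes were taken as every gene of the deposited expression table whose symbol has the form of COL, a number, A and a number. The rule found 44 of 35639 genes. They encode 11 fibrillar, 9 network-forming, 10 FACIT (fibril-associated), 5 beaded filament and 4 transmembrane chains, with 1 anchoring fibril chain, 2 multiplexin chains and 2 further chains outside these classes. The cells were hFOB 1.19, derived from the osteoblasts of a human fetus and carrying an SV40 T antigen that is inactive when warm, and they were grown at 34 °C. Lentivirus (pHIV-dTomato) carried either no insert (EV) or C-terminally HA-tagged Drosophila His3.3A in its wild-type form (H3.3-WT, here WT) or with glycine 34 changed to tryptophan (H3.3-G34W, here G34W), the histone substitution found in giant cell tumour of bone. Transduced cells were sorted by FACS for dTomato, so each line was a sorted population that kept its own H3.3 genes, and RNA was taken 15 days after transduction for poly(A) sequencing. Of 6 libraries, 2 in each group, 5 were used: EV replicate 2, both WT and both G34W libraries. The groups follow the library titles, and in the labels the genotype entries of WT and G34W are swapped relative to those titles. Each direction between these groups therefore holds for the titles, as does which of them is named in a comparison with EV.

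Collagens are trimers of alpha chains that wind into a triple helix in the endoplasmic reticulum before secretion. Fibrillar collagens of types I, III and V build the fibrils of bone and connective tissue, type IV forms the network of basement membranes, type VI forms beaded microfibrils around cells, FACIT chains sit on fibril surfaces, and transmembrane collagens span the plasma membrane. Osteoblasts are known for secreting type I collagen, the main protein of the bone matrix on which mineral is laid down.

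Values were normalised estimated counts, a signal that the authors scaled between libraries. They summed to between 38821143 and 48024590 in the 5 libraries, and the sequencing depth cannot be read from them. EV replicate 1 was left out. It was listed at 0 for 80.5% of all genes and for 33 of the 44 collagen genes.

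G34W replicate 1 stood apart from the other 4 libraries. Of 13 pluripotent stem cell markers 12 passed the filter on low values, a mean of at least 10 over the 5 libraries. All 13 were more than 2-fold higher in it than in each other library, and their summed value was 66445 there, against 1142 in EV replicate 2, 982 and 1058 in the WT libraries and 955 in G34W replicate 2. POU5F1, the most abundant of them, had 19441 in G34W replicate 1 and between 41.6 and 75.4 elsewhere, and GDF3 was listed at 0 in the other 4 libraries. The fold changes of single collagen genes in G34W are also given without it. Of the 12 osteoblast lineage markers, 8 passed the filter. Their summed value lay between 75156 and 87281, nearly all of it from SPARC, a collagen-binding matrix protein. SP7 and DLX5, transcription factors of committed osteoblasts, did not exceed 6.03 and 4.56 in any library, and IBSP and DMP1, genes of the mature mineralising stage, were at 0 in 4 and 3 of the 5 libraries. RUNX2, the factor that marks entry into the lineage, lay between 236 and 573. Of 10 chondrocyte markers 8 passed the filter, with sums between 1534 and 1987 and MATN3 the most abundant. SOX9 lay between 231 and 561, HAPLN1 between 64.5 and 187, and ACAN at 19.9 or less. Of 5 endothelial markers 4 passed, with sums between 876 and 2324, mostly from TEK, and CDH5 at 10.9 or less. KDR was at 656 in G34W replicate 1 and at 78.3 or less elsewhere. TEK was lower in both G34W libraries, at 1548 and 782, than elsewhere, at 1829 or more. All 5 epithelial markers passed, with sums between 36108 and 47217, mostly from KRT18 and KRT8. CDH1 and EPCAM were at 2104 and 2175 in G34W replicate 1 and at 64.9 and 46.6 or less elsewhere. KRT19 was higher in both G34W libraries, at 1411 and 757, than elsewhere, at 687 or less. Of 5 myeloid markers 3 passed, with sums between 92.5 and 184, CSF1R the most abundant and TYROBP listed at 0 throughout. The part of the cell types behind any of these 6 marker lists in the collagen results was not tested.

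Levels of different genes were compared per kilobase, the value divided by the length of the gene's canonical transcript. The fibrillar genes held between 43.2% and 51.0% of the collagen value per kilobase in each library, the beaded filament genes between 31.4% and 37.2%, and the network genes between 12.1% and 15.1%. The FACIT genes held between 1.19% and 1.43%, the multiplexin genes between 1.23% and 1.44%, and the transmembrane genes between 0.627% and 0.85%. This order of the first 3 classes was the same in all 5 libraries.

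COL1A2 led the single genes with a mean of 20897 per kilobase over the 5 libraries, followed by COL6A2 (17205), COL6A1 (13991), COL5A2 (8801), COL3A1 (8020.0), COL4A2 (5849), COL1A1 (5559), COL4A1 (3860), COL8A1 (2129) and COL5A1 (1998). These 10 genes held 93.3% of the collagen value per kilobase. Neighbours in this order overlapped in their ranges over the libraries in 8 of 9 pairs, the exception being COL4A1 and COL8A1. Over the whole order, 40 of 43 neighbouring pairs overlapped, so most ranks were not separated beyond the spread of the libraries. At the other end, 5 genes did not pass the filter: COL4A3, COL6A5, COL6A6, COL20A1 and COL23A1.

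**Figure D1:**
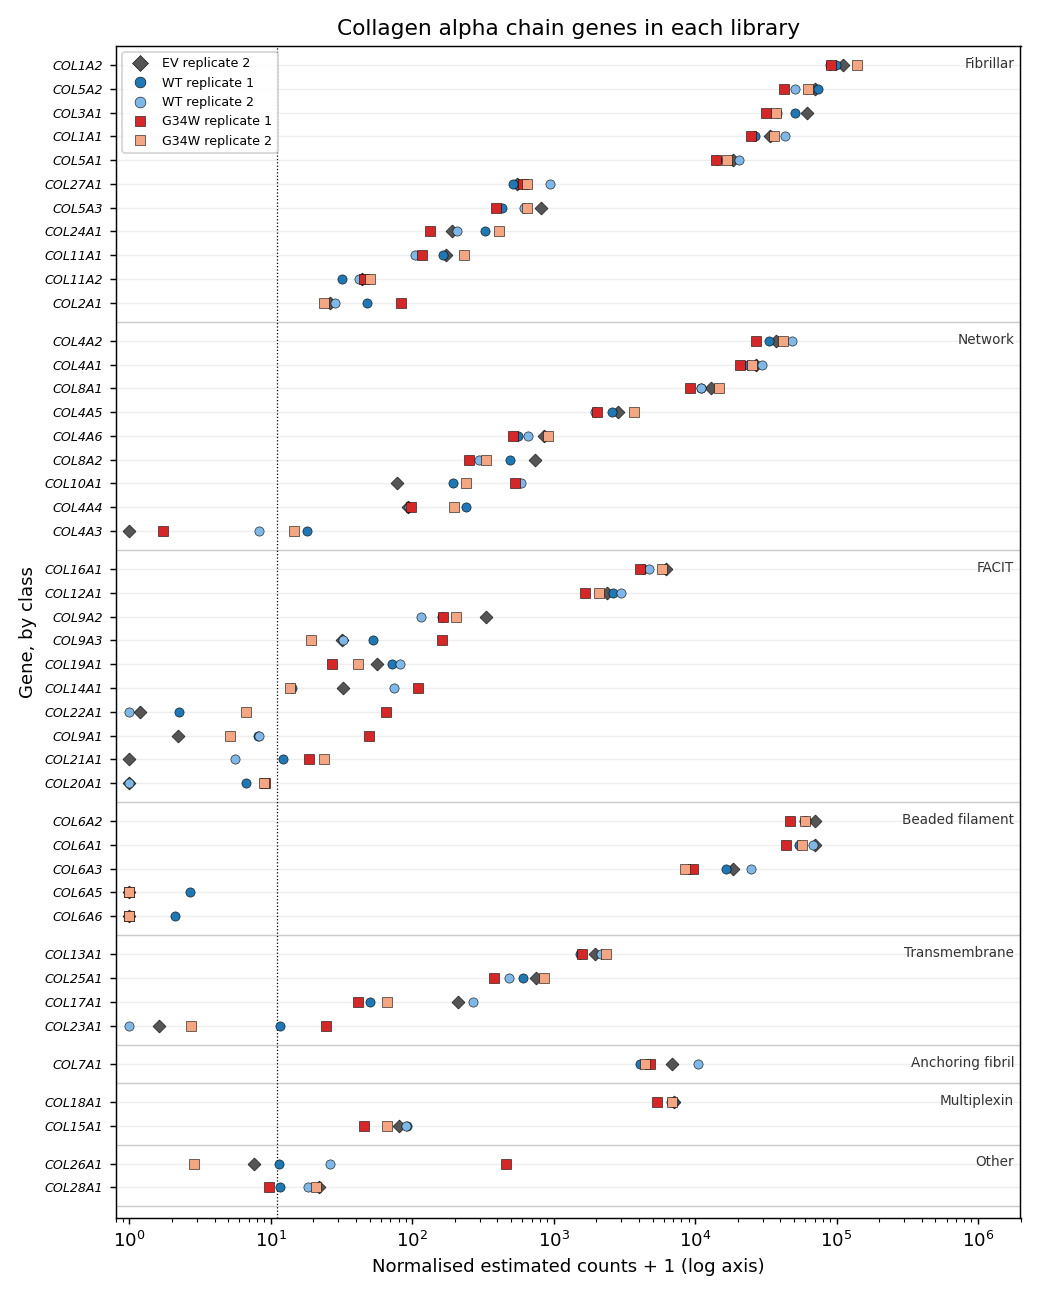
Normalised estimated counts plus 1 (horizontal log axis) of all 44 collagen alpha chain genes, by class, with 1 point for each of the 5 libraries. The dotted line marks the filter, a mean of 10, and COL26A1, COL9A1 and COL22A1 show G34W replicate 1 far to the right of the other libraries.

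Expression was then compared between G34W and WT, to ask how the mutant histone differs from the same histone without the substitution. No collagen gene passed the threshold, and the one that stood furthest from its replicate spread was COL6A3, which was lower in both G34W libraries. With limma on log2(value + 1), 0 of 39 collagen genes and 0 of 16259 genes tested (0%) had an adjusted p under 0.05. At an unadjusted p under 0.05 there were 2 collagen genes, COL6A3 and COL12A1, both lower, against 439 of all genes tested (2.7%), 265 higher and 174 lower. Without G34W replicate 1 the count over all genes was 226, with COL6A3 as the 1 collagen gene. Without G34W replicate 2 it was 1510, with 6 collagen genes, COL6A3 and COL12A1 lower and 4 others higher. The median log2 fold change was -0.03 over the 39 collagen genes, -0.14 over the 36 that pass the filter without the G34W libraries, and -0.06 over all genes tested, and 21 collagen genes were lower and 18 higher, against 56.9% of all genes tested that were lower. After rescaling the libraries to a median ratio of 1 the collagen median was 0.02, so it had no stable direction. Both G34W libraries lay below both WT libraries for 5 collagen genes, against 14.7% of all genes tested, and above both for 4, against 11.6%. The lower genes were COL3A1, COL6A3, COL12A1, COL15A1 and COL19A1, the higher ones COL9A2, COL11A2, COL21A1 and COL22A1, of which COL21A1 and COL22A1 passed the filter only through the G34W libraries. With the filter taken over the EV and WT libraries, a choice made after seeing the data, 5 of 36 were lower, against 15.2% of all genes, and 2 higher, COL9A2 and COL11A2, against 10.7%. Cells were collected in duplicate, and the study uses replicate for separate wells. It gives 4 independent infections for its hFOB experiments in general, but no source used here states separate infections for these libraries. The p-values measure only the spread between these libraries, which may be technical in part, and in bulk RNA fewer cells of a kind and less RNA per cell cannot be told apart.

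**Figure D2:**
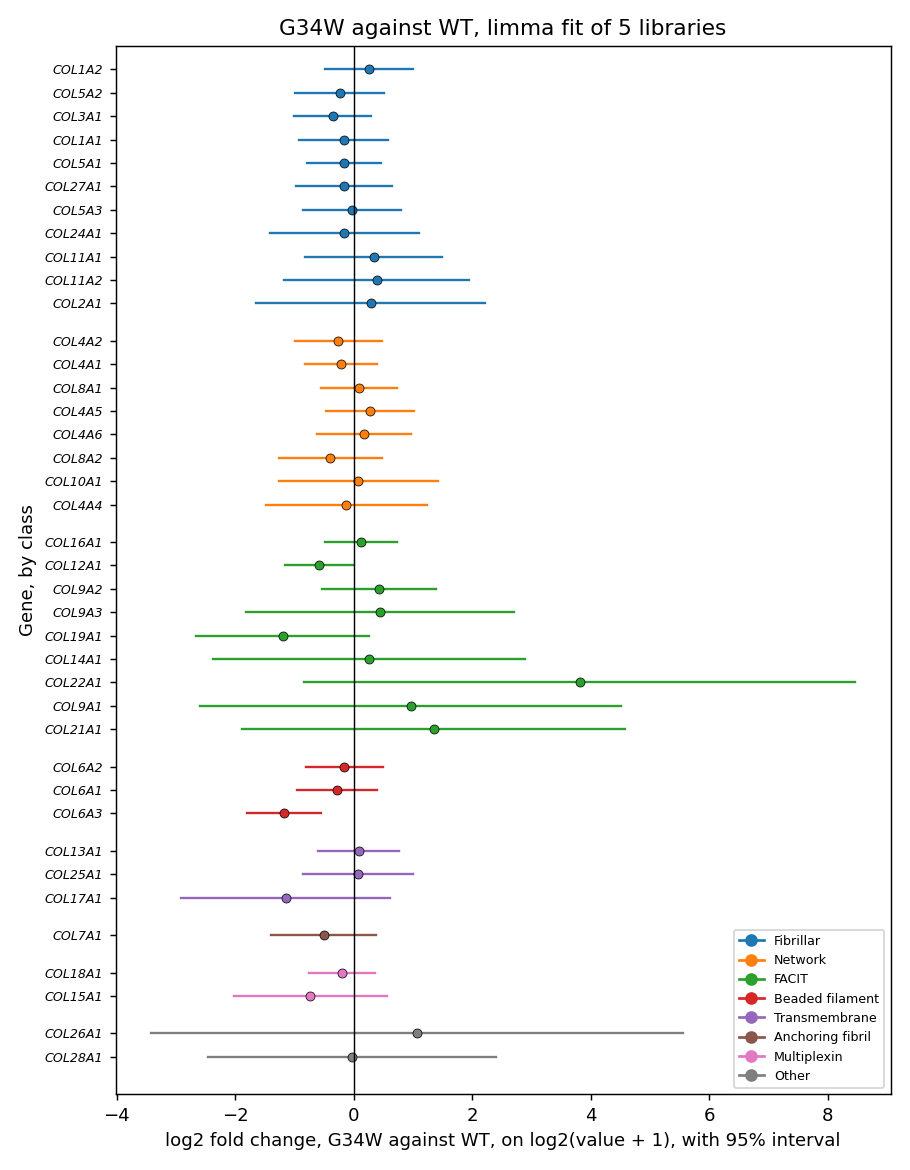
log2 fold change of G34W against WT (horizontal axis, on log2(value + 1)) for the 39 collagen genes tested, by class, with the 95% interval from limma as a line. The interval of COL6A3 runs from -1.80 to -0.55 and that of COL12A1 ends at -0.01, while the intervals of the other 37 genes include 0.

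The beaded filament genes encode type VI collagen, whose alpha 1 and alpha 2 chains pair with an alpha 3 chain or with one of its relatives. COL6A1 (ENSG00000142156, chromosome 21 of GRCh38.p14, 45981770 to 46005048) had 70176 in EV replicate 2, 54251 and 68537 in the WT libraries, and 43896 and 57164 in the G34W libraries. COL6A2 (ENSG00000142173, chromosome 21, 46098112 to 46132848) had 70041 in EV replicate 2, 58442 and 60501 in WT, and 47086 and 60289 in G34W. The WT and G34W ranges of both genes overlapped, with G34W replicate 1 the lowest library. Their log2 fold changes were -0.28 for COL6A1 and -0.16 for COL6A2 (adjusted p = 1 for both in limma), and without G34W replicate 1 they were -0.09 and 0.02. COL6A3 (ENSG00000163359, chromosome 2, 237324018 to 237414164), which encodes the long alpha 3 chain, had 18670 in EV replicate 2, 16618 and 24798 in WT (20708 ± 5784, SD, n = 2), and 9605 and 8438 in G34W (9021 ± 825, SD, n = 2). Both G34W libraries lay below the other 3 libraries, and G34W replicate 2 was the lowest. The log2 fold change was -1.17 (standard error 0.28, adjusted p = 1 from limma, unadjusted p = 0.00217). Single libraries left out moved it between -1.46 and -0.88, and it was -1.27 without G34W replicate 1. COL6A5 and COL6A6, which encode alternatives to the alpha 3 chain, were at 1.67 and 1.11 in WT replicate 1 and listed at 0 in the other 4 libraries.

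Ratios of chains within a library do not depend on a scaling factor that all genes of the library share. Whether the values also carry factors that differ between genes was not checked. The ratio of COL6A3 to COL6A1 was 0.266 in EV replicate 2, 0.306 and 0.362 in WT, and 0.219 and 0.148 in G34W. Both G34W ratios lay below the other 3, and the log2 difference from WT was -0.89, and leaving out any single WT or G34W library kept it from -1.17 to -0.61. The ratio of COL6A2 to COL6A1 was 0.998 in EV replicate 2, 1.08 and 0.883 in WT, and 1.07 and 1.05 in G34W, so these groups overlapped. Of 13 chain ratios computed, the WT and G34W libraries were separated in 4, those of COL6A3 to COL6A1 and to COL6A2, of COL16A1 to COL12A1, and of COL4A4 to COL4A3, the last with COL4A3 under the filter. An exact permutation test of 2 libraries against 2 (two-sided) cannot give a p below 0.333, and it gave 0.333 for each of these 4. The COL6A3 ratios were looked at after its values were known.

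**Figure D3:**
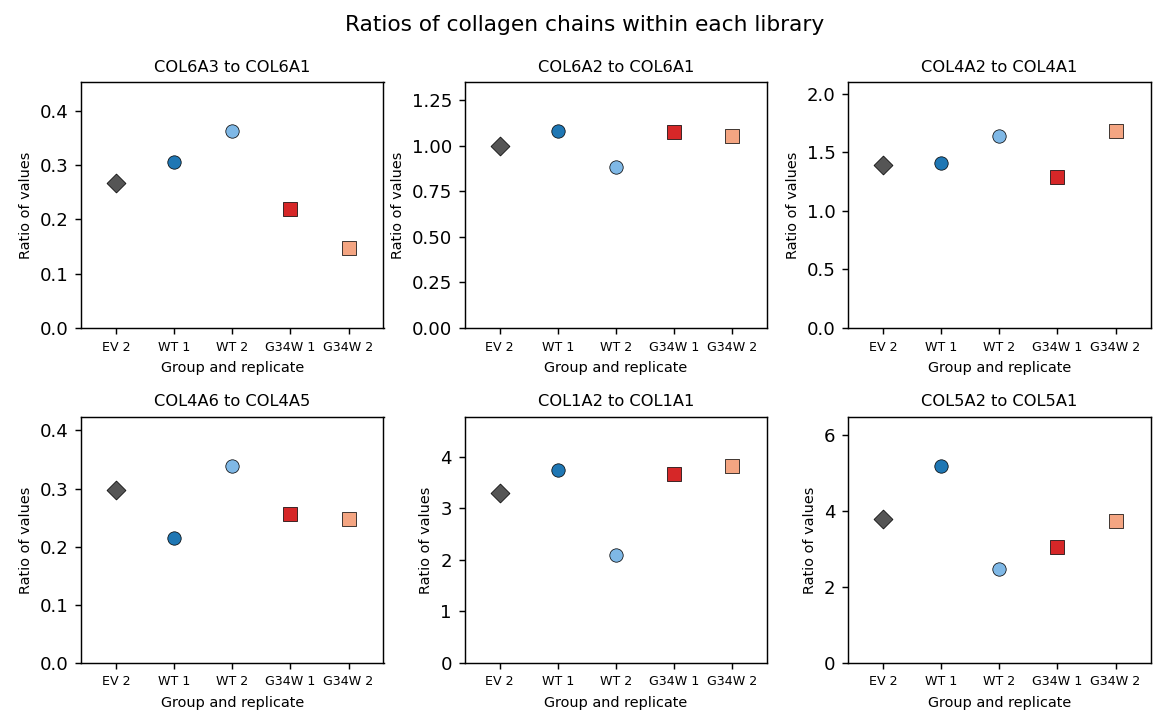
Ratio of the normalised estimated counts of chains within each library (vertical axes, from 0) for 6 pairs of collagen chains, with 1 point a library. COL6A3 to COL6A1 is 0.219 and 0.148 in G34W and at least 0.266 in the other 3 libraries, while the other pairs overlap between WT and G34W.

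Promoter sequence was looked up for the members in a table made from RefSeq (GRCh38.p14), where 32 of 44 genes matched, with 44 start sites. COL14A1, COL1A1, COL1A2, COL20A1, COL22A1, COL2A1, COL3A1, COL5A2, COL6A1, COL6A5, COL8A1 and COL9A3 had no window in the promoter table used. The letters TATAAA (the core of a TATA box) as well as CCAAT and GGGCGG were searched on both strands of the 250 bases before each start. TATAAA was held by 8 of 44 collagen windows and 10.7% of all 35116 windows, CCAAT by 12 and 32%, and GGGCGG by 24 and 42.6%. The windows of COL6A2 (chr21:46097862-46098111, plus strand) and COL6A3 (chr2:237414165-237414414, minus strand) are shown because these chains of the same microfibril stood differently against WT in the G34W libraries, with the letters searched in capitals.
COL6A2: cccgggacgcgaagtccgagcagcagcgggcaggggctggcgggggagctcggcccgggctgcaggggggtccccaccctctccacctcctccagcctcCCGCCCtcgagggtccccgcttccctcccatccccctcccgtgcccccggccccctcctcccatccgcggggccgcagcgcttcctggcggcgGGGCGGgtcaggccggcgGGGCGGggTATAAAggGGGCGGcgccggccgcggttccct
COL6A3: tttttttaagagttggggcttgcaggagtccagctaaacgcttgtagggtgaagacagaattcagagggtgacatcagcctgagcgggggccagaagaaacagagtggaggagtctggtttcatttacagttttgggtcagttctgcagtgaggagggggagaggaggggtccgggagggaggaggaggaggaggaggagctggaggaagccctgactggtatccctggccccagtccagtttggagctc
The COL6A2 window held GGGCGG at 4 places and TATAAA at 1, and 79.6% of its bases were G or C. The COL6A3 window held none of the letters searched, and 56% of its bases were G or C, against a median of 58% over all windows. A match or its absence describes these letters alone.

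Among the fibrillar genes, type I collagen is built from a pair of alpha 1 chains and an alpha 2 chain. COL1A1 (ENSG00000108821, chromosome 17, 50184101 to 50201631) had 33754 in EV replicate 2, 26425 and 43115 in WT, and 24757 and 36342 in G34W. COL1A2 (ENSG00000164692, chromosome 7, 94394895 to 94431227) had 111335 in EV replicate 2, 98769 and 90034 in WT, and 91016 and 138799 in G34W. The WT and G34W ranges of both genes overlapped, and the G34W replicates, 0.55 and 0.61 apart in log2, lay further from each other than the group means. The log2 fold changes were -0.17 for COL1A1 and 0.25 for COL1A2 (adjusted p = 1 for both in limma), and without G34W replicate 1 they were 0.11 and 0.56. Each changed sign when some single library was left out. The ratio of COL1A2 to COL1A1 per kilobase was 3.85 in EV replicate 2, 4.36 and 2.43 in WT, and 4.29 and 4.45 in G34W. WT replicate 2 was the library that stood apart, and the other 4 lay close together.

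COL3A1 (ENSG00000168542, chromosome 2, 188974373 to 189012746), the single chain of type III collagen, had 62246 in EV replicate 2, 51115 and 37814 in WT, and 31708 and 37266 in G34W. Both G34W libraries lay below both WT libraries, but by a margin far smaller than the gap between the WT replicates, and the log2 fold change was -0.35 (standard error 0.29, adjusted p = 1 from limma), or -0.24 without G34W replicate 1. COL5A1 and COL5A2 encode chains of type V collagen, which sits inside type I fibrils and limits their width. COL5A1 had 18600 in EV replicate 2, 14349 and 20543 in WT, and 14032 and 16819 in G34W. COL5A2 had 70092 in EV replicate 2, 74202 and 50556.5 in WT, and 42789.6 and 62876 in G34W. Both overlapped between the groups. The third type V chain, COL5A3, ranged from 393 to 809 and was highest in EV replicate 2.

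The remaining fibrillar genes were each under 1000 in all 5 libraries and overlapped between WT and G34W, except COL11A2. COL27A1 ranged from 512 to 939, COL24A1 from 133 to 408 and COL11A1, a chain of cartilage type XI collagen, from 103 to 230. COL11A2 was at 42.8 in EV replicate 2, 30.7 and 40.8 in WT, and 44.3 and 49.2 in G34W. COL2A1, the cartilage fibril chain, was at 82.9 in G34W replicate 1 and between 22.9 and 46.8 in the other 4 libraries. Over the 11 fibrillar genes the median log2 fold change was -0.16, with 7 lower and 4 higher, and 0 had an unadjusted p under 0.05 in limma, against 2.7% of all genes tested.

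Of the network genes, COL4A1 and COL4A2 encode the common basement membrane trimer. COL4A1 (ENSG00000187498, chromosome 13, 110148963 to 110307157) had 26915 in EV replicate 2, 23607 and 29773 in WT, and 20823 and 25097 in G34W. COL4A2 (ENSG00000134871, chromosome 13, 110307284 to 110513209) had 37472 in EV replicate 2, 33331 and 48692 in WT, and 26910 and 42112 in G34W. For both genes G34W replicate 1 was lowest and WT replicate 2 highest, and the groups overlapped. The log2 fold changes were -0.21 for COL4A1 and -0.26 for COL4A2 (adjusted p = 1 for both in limma), and without G34W replicate 1 they were -0.08 and 0.06. The ratio of COL4A2 to COL4A1 stayed between 1.29 and 1.68. These genes start 126 bases apart on opposite strands. The type IV chains COL4A3 and COL4A4 (chromosome 2, 418 bases apart) and COL4A5 and COL4A6 (chromosome X, 379 bases apart) are laid out in the same way. The 418 bases are counted from the COL4A4 start that has a promoter window, at 227164205. Its gene bounds reach further, to 227164488, nearer the COL4A3 start at 227164624. The stretch between the starts of COL4A1 and COL4A2 (chr13:110307158-110307283, plus strand, the strand of COL4A2) and the 250 bases before COL4A5 (chrX:108439588-108439837, plus strand), which lie towards COL4A6, are shown. Each lies between the starts of a pair of genes whose values were compared, and the same letters are in capitals.
COL4A1/COL4A2: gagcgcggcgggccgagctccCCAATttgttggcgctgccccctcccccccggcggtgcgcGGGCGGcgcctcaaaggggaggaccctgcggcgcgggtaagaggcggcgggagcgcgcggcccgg
COL4A5: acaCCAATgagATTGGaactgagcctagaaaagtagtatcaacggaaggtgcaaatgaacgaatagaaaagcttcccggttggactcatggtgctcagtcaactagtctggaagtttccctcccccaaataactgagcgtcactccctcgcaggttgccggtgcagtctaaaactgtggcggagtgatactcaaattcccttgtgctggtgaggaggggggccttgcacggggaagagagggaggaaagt
The stretch between COL4A1 and COL4A2 held CCAAT at 1 place and GGGCGG at 1, and 80.2% of its bases were G or C. These letters are held by 21.1% and 34.6% of all windows of 126 bases before a start. The COL4A5 window held CCAAT at 2 places, 1 on each strand, and neither TATAAA nor GGGCGG, and 51.2% of its bases were G or C.

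COL4A5 ranged from 1952 in WT replicate 2 to 3678 in G34W replicate 2, and COL4A6 from 518 in G34W replicate 1 to 909 in G34W replicate 2. The ratio of COL4A6 to COL4A5 was 0.298 in EV replicate 2, 0.216 and 0.338 in WT, and 0.256 and 0.247 in G34W, so the G34W libraries fell inside the WT range. COL4A4 ranged from 92.0 to 241, and COL4A3 did not exceed 16.9 and was listed at 0 in EV replicate 2. The type VIII genes encode chains of a short-chain network. COL8A1 ranged from 9186 in G34W replicate 1 to 14746 in G34W replicate 2. COL8A2 was far lower, with 735 in EV replicate 2, 489 and 293 in WT, and 249 and 331 in G34W. COL10A1, the chain made by hypertrophic chondrocytes, had 76.6 in EV replicate 2, 193 and 590.2 in WT, and 529 and 239 in G34W. WT and G34W overlapped for all 8 network genes tested, against 26.3% of all genes tested that did not overlap. Of the 8, 4 were higher and 4 lower, with a median log2 fold change of -0.02, and 0 had an unadjusted p under 0.05 in limma, against 2.7% of all genes tested.

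Of the FACIT genes, COL12A1 and COL16A1 were the most abundant per kilobase. COL12A1 (ENSG00000111799, chromosome 6, 75084326 to 75206053) encodes type XII collagen, which binds type I fibrils. It had 2368 in EV replicate 2, 2637 and 2981 in WT (2809 ± 243, SD, n = 2), and 1674 and 2088 in G34W (1881 ± 292, SD, n = 2). Both G34W libraries lay below the other 3, and the log2 fold change was -0.58 (standard error 0.26, adjusted p = 1 from limma, unadjusted p = 0.0484). The unadjusted p in limma was above 0.05 without either WT replicate (-0.67 and -0.50) and without G34W replicate 1 (-0.43). COL16A1 had 6255 in EV replicate 2, 4262 and 4695 in WT, and 4045 and 5879 in G34W, which overlapped. The ratio of COL16A1 to COL12A1 was 2.64 in EV replicate 2, 1.62 and 1.57 in WT, and 2.42 and 2.82 in G34W. The WT libraries had the lowest ratios, and EV replicate 2 fell between the G34W libraries.

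Type IX collagen, built from the chains of COL9A1, COL9A2 and COL9A3, coats cartilage fibrils. COL9A2 had 332 in EV replicate 2, 160 and 114 in WT, and 164 and 202 in G34W. The G34W libraries lay just above the WT libraries and both groups below EV replicate 2. COL9A1 was at 48.4 in G34W replicate 1 and at 7.24 or less elsewhere, and COL9A3 was at 161 and at 51.7 or less. COL22A1, a chain of tissue junctions, was at 64.6 in G34W replicate 1, at 5.71 in G34W replicate 2 and at 1.23 or less elsewhere. In these 3 genes G34W replicate 1 was the highest library. COL14A1 ranged from 12.7 to 109, with G34W replicate 1 again the highest. COL19A1 had 55.4 in EV replicate 2, 70.9 and 80.4 in WT, and 26.2 and 40.0 in G34W, both below the other 3. COL21A1 was listed at 0 in EV replicate 2, with 11.3 and 4.57 in WT and 17.6 and 22.9 in G34W. COL20A1 did not exceed 8.15. Over the 9 FACIT genes tested, 7 were higher and 2 lower, with a median log2 fold change of 0.43. COL9A1, COL21A1 and COL22A1 passed the filter only through the G34W libraries, which favours higher values. With the filter taken over the EV and WT libraries, a choice made after seeing the data, 4 FACIT genes were higher and 2 lower, with a median of 0.19. Relative to the WT mean, the median log2 ratio of the 9 tested was 1.17 in G34W replicate 1 and -0.43 in replicate 2, and over the 6 genes of that filter it was 0.07 and -0.66.

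Of the transmembrane genes, COL13A1, a collagen of cell adhesion sites, ranged from 1540.2 to 2331 and COL25A1 from 377 to 853. COL17A1, the hemidesmosome collagen of epithelia, had 209 in EV replicate 2, 48.9 and 270 in WT, and 40.5 and 65.5 in G34W. The WT replicates of COL17A1 differed by 5.51-fold, and the lower of them fell inside the G34W range. COL23A1 was at 23.7 in G34W replicate 1, at 10.6 in WT replicate 1 and at 1.71 or less elsewhere. The 3 transmembrane genes tested had a median log2 fold change of 0.07, with 2 higher and 1 lower.

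COL7A1, the anchoring fibril chain, had 6849 in EV replicate 2, 4096 and 10404 in WT, and 4779 and 4428 in G34W. The WT replicates differed by more than 2-fold and enclosed both G34W libraries. The multiplexin genes encode collagens with interrupted helices in vessel and epithelial basement membranes. COL18A1 ranged from 5338 in G34W replicate 1 to 7106 in WT replicate 1. COL15A1 had 79.3 in EV replicate 2, 91.2 and 90.0 in WT, and 44.5 and 65.7 in G34W, both below the other 3. COL28A1 ranged from 8.73 to 20.9. COL26A1 had 457 in G34W replicate 1 and 1.84 in G34W replicate 2, against 6.57 in EV replicate 2 and 10.3 and 25.2 in WT, so its group mean rested on a single library.

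The G34W replicates differed from each other in the same direction for most collagen genes. G34W replicate 2 was above replicate 1 for 30 of 39 collagen genes, against 65.4% of all genes tested, and WT replicate 2 above WT replicate 1 for 22 of 39, against 58.7%. The median log2 ratio of the collagen genes to the WT mean was -0.34 in replicate 1, with 29 genes lower, and 0.02 in replicate 2, with 19 lower. Over all genes tested the medians were -0.17 and 0.04, with 63.2% and 43.5% of them lower. The fibrillar median was -0.29 in replicate 1 and 0.11 in replicate 2, the network median -0.30 and 0.22, the transmembrane median -0.51 and 0.36, and the beaded filament median -0.47 and -0.09. The FACIT median was 1.17 and -0.43, or 0.07 and -0.66 with the filter taken over the EV and WT libraries. Of the classes with at least 3 genes tested, the beaded filament class had the same sign in both libraries. The fibrillar, network, transmembrane and FACIT classes did not, and FACIT alone was higher in replicate 1. In the opposite direction, 4 of 39 collagen genes, COL9A1, COL9A3, COL22A1 and COL26A1, were more than 2-fold higher in G34W replicate 1 than in each other library, against 6.05% of all genes tested, and COL23A1 under the filter was so too. COL9A1 and COL22A1 passed the filter only through this library. With the filter taken over the other 4 libraries, a choice made after seeing the data, 2 of 36 collagen genes remained, COL9A3 and COL26A1, against 3.82% of all genes. These are the values of the library in which the pluripotent stem cell markers were high, and a part of those cells in the collagen values was not tested.

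**Figure D4:**
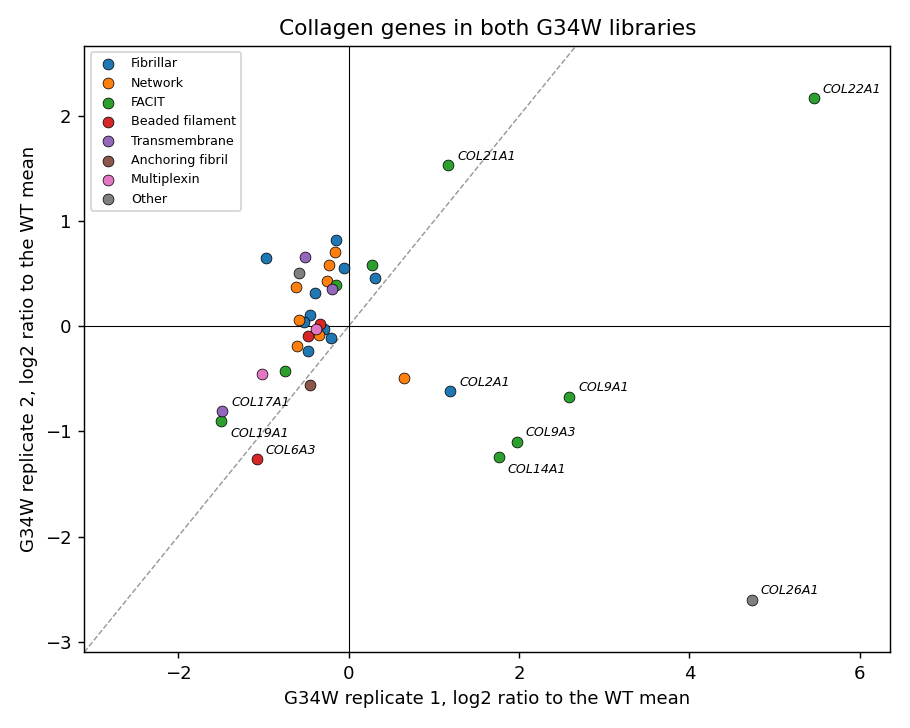
log2 ratio to the WT mean in G34W replicate 1 (horizontal axis) and replicate 2 (vertical axis), on log2(value + 1), for the 39 collagen genes tested, with colours for classes and a dashed line of equal values. Most genes lie left of the dashed line, COL6A3 lies on the lower side of 0 in both libraries, and COL26A1, COL22A1 and COL9A1 lie far to the right.

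WT and G34W were next each set against EV, to ask what adding either histone does. EV was a single library here, assumed in limma to vary like the others, and both comparisons share it. COL10A1 was lower in EV than in the 4 other libraries, and COL8A2 and COL9A2 were higher in EV than in all of them, although none passed the threshold. Between WT and EV, 0 of 39 collagen genes and 0 of 16259 genes (0%) had an adjusted p under 0.05 in limma, and 2 collagen genes had an unadjusted p under 0.05, against 157 of all genes tested (0.966%). They were COL10A1, at 2.12 in log2 with a standard error of 0.72, and COL9A2, at -1.29 with a standard error of 0.52 (limma gave both an adjusted p of 1). Without WT replicate 2 they were 1.32 and -1.04, and neither then had an unadjusted p under 0.05 in limma. COL9A2 also lost it without either G34W replicate. Between G34W and EV, 0 of 39 collagen genes and 0 of 16259 (0%) had an adjusted p under 0.05 in limma, and 5 collagen genes had an unadjusted p under 0.05, against 317 of all genes tested (1.95%). COL10A1 had a log2 fold change of 2.20, COL8A2 of -1.35, COL6A3 of -1.05 and COL3A1 of -0.86 (adjusted p = 1 for each in limma). The fifth was COL21A1, which was listed at 0 in EV replicate 2. It passed the filter only through the G34W libraries, which favours a higher value there, so its place in this count carries no weight. Without G34W replicate 1, COL6A3 (-1.15) and COL21A1 kept an unadjusted p under 0.05 against EV in limma, and COL10A1 (1.63), COL8A2 (-1.15) and COL3A1 (-0.74) did not. Without G34W replicate 2, COL6A3 (-0.96) and COL3A1 (-0.97) did not keep an unadjusted p under 0.05 against EV in limma. The median log2 fold change against EV was then -0.50 over the collagen genes and -0.14 over all genes tested. COL21A1 lost its unadjusted p under 0.05 in limma when either WT replicate was left out. The median log2 fold change of the 39 collagen genes was -0.07 for WT and -0.23 for G34W against EV, with 23 and 26 genes lower. Over all genes tested the medians were 0.02 and -0.03, with 47.2% and 53.3% of them lower.

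EV replicate 2 was above the other 4 libraries for 8 of 39 collagen genes, against 14.1% of all genes tested, and below them for 4, against 15.2%. The 8 were COL3A1, COL5A3, COL6A1, COL6A2, COL8A2, COL9A2, COL16A1 and COL28A1, and the 4 were COL4A4, COL9A1, COL10A1 and COL21A1. Of the 4, COL9A1 and COL21A1 passed the filter only through the G34W libraries, which favours EV as their lowest library. For COL4A4 the distance to the nearest library was small, 92.0 against 93.9 in WT replicate 2.

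**Figure D5:**
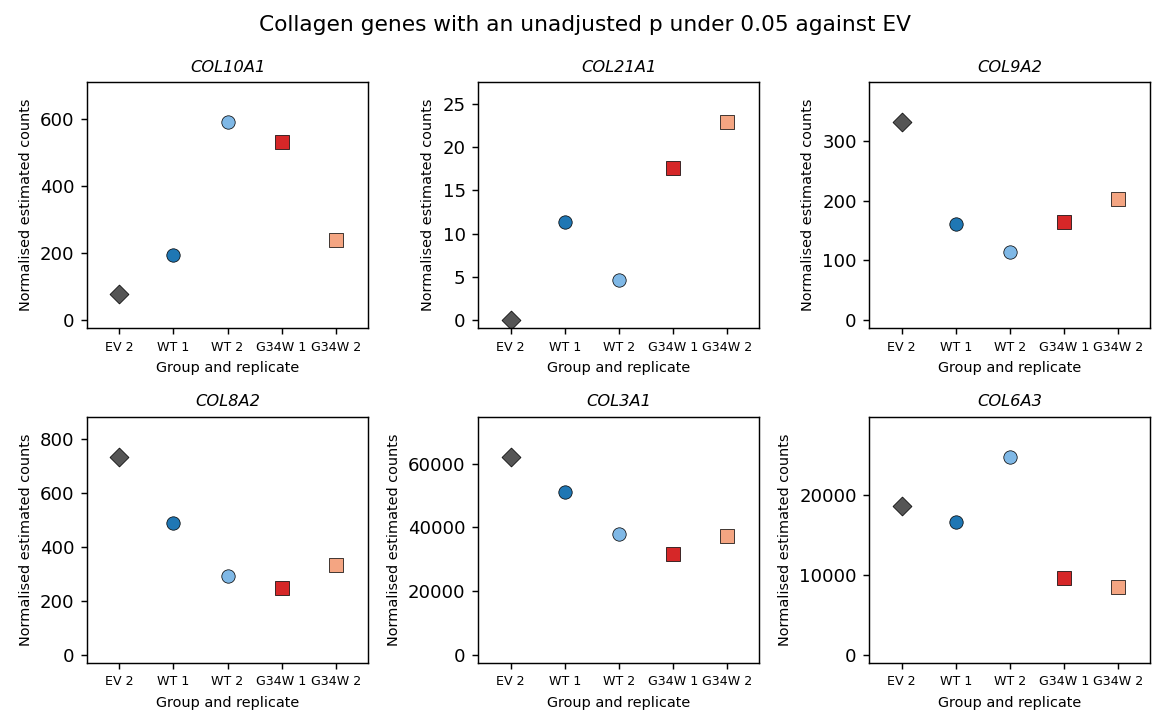
Normalised estimated counts (vertical axes, from 0) of the 6 collagen genes with an unadjusted p under 0.05 for WT or G34W against EV, with 1 point for each of the 5 libraries. COL10A1 and COL21A1 are lowest in EV replicate 2, COL9A2, COL8A2 and COL3A1 are highest there, and COL6A3 is lowest in G34W.

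Genes that make, export, crosslink, bind and cleave collagen were followed beside the chains, and 0 genes of any of these lists had an adjusted p under 0.05 in limma in any of the 3 comparisons. Between G34W and WT, 56.9% of all genes tested were lower. All 19 genes of chain modification and folding were tested in that comparison, with a median log2 fold change of 0.05, 8 lower, and 0 at an unadjusted p under 0.05 in limma. Its most abundant genes were P4HB, the beta subunit of prolyl 4-hydroxylase (30396 to 42050), PPIB, a prolyl isomerase (20363 to 26844), and FKBP10, another prolyl isomerase (16447 to 23771). All 9 export genes were tested, with a median of -0.11, 6 lower, and 0 at an unadjusted p under 0.05, led by the coat genes SEC13 (12739 to 16176), SEC23A (10533 to 13143) and SEC31A (6710 to 8876). Of 15 genes of propeptide cleavage and crosslinking 13 were tested, with a median of 0.23 and 2 lower, but the G34W libraries had the lowest and the highest sum of the list (39596 and 72222). LOXL2, a lysyl oxidase that crosslinks collagen, had 20105 in EV replicate 2, 18939 and 24857 in WT, and 15308 and 32072 in G34W. LOXL1 ranged from 9774 to 15808 and LOXL4 from 1162 to 6550, and both overlapped between the groups. Of 11 receptor genes 9 were tested, with a median of -0.05 and 5 lower, led by ITGB1 (63395 to 79576), MRC2 (12361 to 19416) and DDR2 (5517 to 7728).

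Of 12 fibril-binding proteoglycan and glycoprotein genes 10 were tested, with a median log2 fold change of -0.67. Of these 8 were lower, against 56.9% of all genes tested, and both G34W libraries lay below both WT libraries for 3, against 14.7%, and the list was not tested. The 1 gene with an unadjusted p under 0.05 in limma, against 2.7% of all genes tested, was DCN, which encodes decorin, a proteoglycan on type I fibrils, and which is named because of its value. DCN had 449 in EV replicate 2, 506 and 397 in WT, and 201 and 298 in G34W, with both G34W libraries the lowest. The list was led by THBS1 (59895 to 255665), SPARC (72998 to 85409) and FN1 (43862 to 82202), with WT replicate 2 the highest library for THBS1 and FN1. Of 6 collagenase genes 4 were tested, with a median of -0.09. MMP14, a membrane-bound collagenase, ranged from 32156 to 44148 and MMP1 from 35.0 to 239.7. MMP2, a gelatinase that degrades denatured collagen, had 1427 in EV replicate 2, 1294 and 2162 in WT, and 2810.1 and 2621 in G34W. Its G34W libraries were the highest, and it was the 1 collagenase gene with an unadjusted p under 0.05 in limma, against 2.7% of all genes tested. Against EV, 3 genes of these lists had an unadjusted p under 0.05 in limma in G34W, against 1.95% of all genes tested: LOXL3 and LUM, both lower, and MMP2, higher, the first 2 named because of their values. LOXL3 had 5098 in EV replicate 2, 3842 and 3377 in WT, and 2631 and 2419.5 in G34W, and LUM, which encodes a fibril-binding proteoglycan, had 1093, then 792 and 743, and then 704 and 342. Both G34W libraries were the lowest for LOXL3 and for LUM.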

How the data were processed

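Poly(A) RNA libraries of hFOB 1.19 lines were sequenced, with 2 libraries in each of 3 groups. Transcript estimates came from kallisto on the GRCh38 annotation of Ensembl (release 99), were summarised to genes by tximport and scaled by the authors in DESeq2, and their versions were not given in the sources used here. The deposited values are this signal, normalised estimated counts for 35639 genes. They are not whole reads, so no count test, depth or detection floor was derived.

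The 5 libraries without EV replicate 1 were fitted together in limma 3.58.1 (R 4.3.3) on log2(value + 1), with a variance trend and no covariate, for 16259 genes with a mean of at least 10. Benjamini-Hochberg adjustment ran over all of them, with a threshold of 0.05. A fold change on this scale understates the change of low genes. The script was tested on simulated data. Values per kilobase used Ensembl canonical transcript lengths (GENCODE v44lift37), and coordinates and promoters came from RefSeq GRCh38.p14. Tables used Python 3.11.15, pandas 2.3.3 and matplotlib 3.10.9.

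The members and the lists of collagen-processing genes and cell type markers were chosen with earlier results of these data known, so no list was tested. All collagen genes were named, and of each other list its 3 genes with the highest mean. Any gene named beyond this rule was picked once its values had been seen. The offset, filter, variance prior, scaling, libraries in the fit, replicate block and single libraries were varied.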

Additional observations from a re-analysis of the deposited data

Results flagged for a closer look

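EV replicate 1 was used in no comparison, and in it 7 collagen genes had values above those of all 5 libraries used. COL13A1 had 41797.5 there, against at most 2331 in the other libraries, COL17A1 had 1412 against at most 270 and COL2A1 had 1708 against at most 82.9. The lower ones were COL19A1 at 119, COL28A1 at 111, COL15A1 at 102 and COL6A6 at 13.6. COL13A1 and COL17A1 lie on chromosome 10 and COL2A1 on chromosome 12. Of the genes tested, EV replicate 1 was above 0 for 98.998% of 599 on chromosome 10, 98.3% of 871 on chromosome 11 and 81.0% of 796 on chromosome 12, with a median ratio to EV replicate 2 of 23.8, 23.8 and 22.8 among genes above 0 in both. On the other chromosomes it was above 0 for 28.7% of 13051 genes, with a median ratio of 0.0944. The cause was not tested.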

How the results depend on the processing

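The collagen count past the threshold was 0 in limma for G34W against WT under every alternative run, and COL6A3 and COL12A1 kept their negative sign in all of them. With each library left out in turn, the count over all genes ranged from 0 to 13 in limma for G34W against WT and from 0 to 3 for WT against EV. With an offset of 0.1 in place of 1, it was 1 for WT against EV and 1 for G34W against EV. An arm left with 1 library was assumed to vary like the others. The median collagen log2 fold change ranged from -0.34 to 0.0814 over the libraries left out. Collagen genes whose WT and G34W libraries do not overlap numbered 9 of 39 (26.3% of all genes tested) and 12 under either rescaling (28.4% and 28.2%). Leaving out 1 library of a group, an alternative chosen after seeing the data, gave 17 without WT replicate 2 (57.9% of all genes) to 31 without G34W replicate 2 (73.4%), a rise that all genes share.

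With libraries left out, the log2 fold change ranged from -0.52 to 0.18 for COL1A1, from -0.0511 to 0.56 for COL1A2, from -0.58 to 0.0640 for COL4A2 and from -0.34 to 0.0199 for COL6A2. With EV replicate 1 included at its listed values, values against EV turned positive: 2.90 for COL9A2 in WT, and 2.36 for COL6A3, 7.11 for COL3A1 and 3.41 for COL8A2 in G34W. That library is listed at 0 for most genes.

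At an unadjusted p under 0.05, limma gave 791 genes for G34W against WT with no filter on low values and 25 with EV replicate 1 included, against 439. With a constant prior variance 486 of all genes tested and 4 collagen genes had such a p, against 439 and 2. COL6A3 was among the 4 and COL12A1 was not. For G34W against EV that setting gave 446 genes and 2 collagen genes, against 317 and 5. COL10A1, COL6A3 and COL3A1 were no longer among them. With no filter on low values the same comparison gave 1017 of 24560 genes and 3 collagen genes. With an offset of 10 it gave 259 genes and 4 collagen genes. COL21A1 was not among the collagen genes at that offset or with the replicate block. For WT against EV the block gave 369 genes and 1 collagen gene, without COL9A2. Same-numbered WT and G34W libraries deviated together with a correlation of 0.0945 across genes, and nothing beyond the number pairs them. The cause was not tested. With the replicate block the count past the threshold was 0 in limma for each comparison, and 715, 369 and 275 genes had an unadjusted p under 0.05.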
